A study of Mus musculus with 4 samples.

Results

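The genes described here encode the secreted and membrane metalloproteinases of the Mmp, Adam and Adamts families and the 4 tissue inhibitors of metalloproteinases, Timp1 to Timp4, in lymphatic endothelial cells of the newborn mouse lung. They were chosen by gene symbol alone. Of 24421 rows in the deposited table, 79 carried such a symbol, comprising 23 Mmp, 33 Adam, 19 Adamts and 4 Timp genes. Of the 79 genes, 55 had a count in at least 1 library and 36 passed the filter on low counts.

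Cells that were CD45-negative, carried CD31 and expressed GFP were sorted from lungs of postnatal day 0, and each group pooled 3 to 5 mice. Jun-cKO mice were Prox1-CreER;Junf/f;Rosa26-mTmG, so that Cre could act on both alleles of Jun, whose product forms the AP-1 transcription factor with a partner. Jun-Ctrl mice were Prox1-CreER;Junf/+;Rosa26-mTmG and carried the same Cre, the same reporter and 1 floxed Jun allele. The Cre is driven by Prox1, a gene of lymphatic endothelium that other organs also use. With the Rosa26-mTmG reporter, GFP marks cells in which Cre has acted. The design text of the series names Prox1-GFP mice instead, so whether GFP reports Cre action is not settled here. Each group had 2 libraries of mixed cells and amplified RNA. Whether the 2 came from separate sorts or amplifications is not stated. A p-value here covers the spread from library to library alone, which may be technical. Total counts were 15558476 and 6911821 in the Jun-cKO libraries and 16037416 and 6483514 in Jun-Ctrl libraries. Replicate 2 is the library whose title carries the word replicate.

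Jun was examined first, as a check of the labels. It stood at 524 and 475 CPM, the read count normalised to library size by TMM scaling, in the Jun-cKO libraries and at 472 and 433 CPM in Jun-Ctrl libraries. The log2 fold change was 0.14 with an SE of 0.12 (adjusted p = 0.354, quasi-likelihood test of edgeR), so the targeted transcript was not lower where the label says it was deleted. The part of the gene that is floxed is not given in the sources used here. The libraries are called Jun-cKO-labelled below, and every direction rests on that label. Corrected for GC content, Jun stood at a log2 fold change of 0.32 (adjusted p = 0.0211).

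Metalloproteinases cut matrix proteins and cell surface proteins and use a zinc ion for catalysis. Mmp enzymes degrade collagens, laminins and other matrix, Adam enzymes mostly release the outer parts of membrane proteins such as growth factors and Notch receptors, and Adamts enzymes are secreted proteases of proteoglycans and procollagens. Timp proteins bind the active site and block it, with Timp3 also acting on Adam and Adamts enzymes. In lymphatic vessels, Adamts3 with the cofactor Ccbe1 activates the growth factor Vegfc, and Mmp14 at the cell surface is known to cleave the hyaluronan receptor Lyve1. Several Mmp genes are textbook targets of AP-1, in which Jun pairs with Fos proteins.

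The families were expressed very unequally. Per kilobase of gene length, the highest levels belonged to Timp2, with means of 327 CPM per kilobase in Jun-cKO-labelled and 462 in Jun-Ctrl libraries, and to Timp3, with 378 and 390.4 CPM per kilobase. Adamts1 followed with 174 and 177, then Adamts5 with 139.9 and 84.7, Mmp14 with 54.5 and 102, Adam10 with 73.6 and 53.0 and Timp1 with 54.8 and 56.3 CPM per kilobase. Mmp2, Adam17, Adamts9, Adam9 and Adam15 lay between 6.87 and 33.3 CPM per kilobase in both groups. The 4 Timp genes made up 57.5% and 57.5% of the summed level of all 79 genes in Jun-cKO-labelled libraries and 61.5% and 62.6% in Jun-Ctrl libraries. Summed over the Mmp genes the level was 105 and 84.5 CPM per kilobase in Jun-cKO-labelled and 154 and 161 in Jun-Ctrl libraries. For the Adamts genes the sums were 333 and 353 CPM per kilobase in Jun-cKO-labelled and 292 and 293 in Jun-Ctrl libraries. Linear RNA amplification favours the 3′ ends of transcripts, so division by length orders the genes only roughly.

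**Figure D1:**
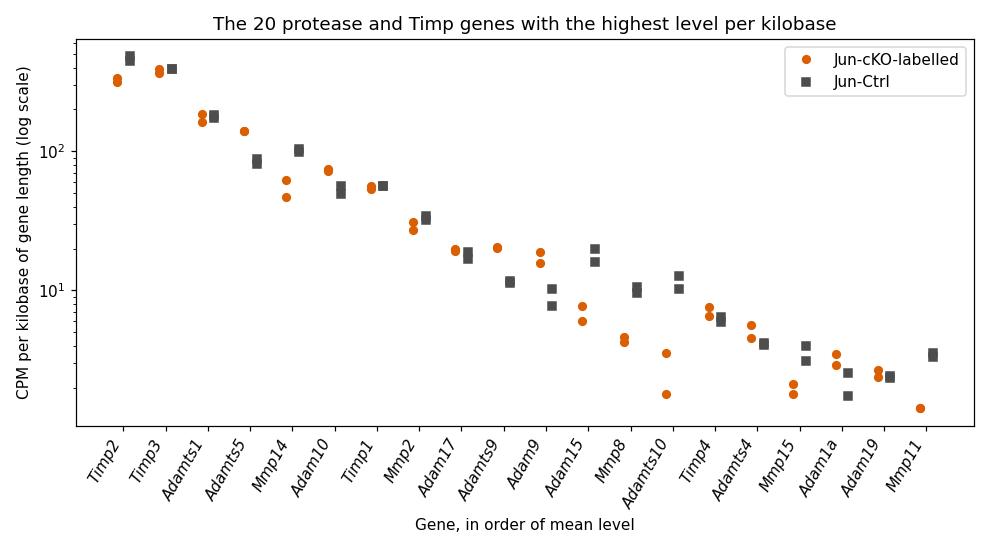
Level of the 20 most abundant protease and Timp genes, in TMM-scaled CPM per kilobase of the authors' gene length on a log axis. Each circle is a Jun-cKO-labelled library and each square a Jun-Ctrl library, 2 per group; Timp2 and Timp3 lead under both labels, and Mmp11, the last of the 20, lies at 1.43 in Jun-cKO-labelled and 3.46 in Jun-Ctrl libraries.

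Several Mmp genes known as AP-1 targets were at or near 0 counts, while other Mmp genes, Mmp9 among them, were tested and are given below. On chromosome 9, 10 Mmp genes lie within 427 kb (chr9:7272514-7699585, GRCm38), and 7 of them, Mmp7, Mmp10, Mmp12, Mmp13, Mmp20, Mmp1a and Mmp1b, had 0 counts in every library. These include the collagenases Mmp13 and Mmp1a, the stromelysin Mmp10, the matrilysin Mmp7 and the macrophage elastase Mmp12. A limit of 3 counts corresponds to 0.193 and 0.434 CPM in Jun-cKO-labelled libraries and 0.187 and 0.463 CPM in Jun-Ctrl libraries, and covers counting error only. Mmp3 had 0 counts in Jun-cKO-labelled libraries and 2 in Jun-Ctrl, and Mmp27 had 1 and 3 in Jun-cKO-labelled libraries and 0 in Jun-Ctrl. Mmp8, the collagenase of neutrophil granules, was the only gene of the cluster above the filter, with 160 and 77 counts in Jun-cKO-labelled and 432 and 155 in Jun-Ctrl libraries.

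The upstream sequences of this cluster are shown because the AP-1 motif lies before most of the genes at or near 0 and not before Mmp8. The pattern TGANTCA, which reads the same on the other strand, was the only motif searched. It occurred in the 250 bases before the start of 8 of the 10 genes, as TGAATCA in Mmp20 and as TGAGTCA or TGACTCA in the others. Of 32851 such windows over all RefSeq genes, 6.75% held the pattern, a share by window and not by gene. In Mmp7 and Mmp12 it was in 1 of 2 windows, and the 2 genes without it were Mmp8 and Mmp27. The 140 bases upstream of the start are given 5′ to 3′ on the plus strand, from RefSeq (GRCm38.p6), with the motif in capitals.
Mmp13 (chr9:7272374-7272513): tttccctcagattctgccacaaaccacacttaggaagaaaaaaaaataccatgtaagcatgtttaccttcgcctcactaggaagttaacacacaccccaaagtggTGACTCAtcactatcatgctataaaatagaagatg
Mmp3 (chr9:7445682-7445821): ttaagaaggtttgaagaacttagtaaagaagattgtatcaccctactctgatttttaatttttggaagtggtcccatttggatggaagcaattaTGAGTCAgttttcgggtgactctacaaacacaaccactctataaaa
Mmp10 (chr9:7502202-7502341): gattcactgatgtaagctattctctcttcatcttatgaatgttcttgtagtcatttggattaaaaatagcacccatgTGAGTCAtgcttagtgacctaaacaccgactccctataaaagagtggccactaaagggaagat
Mmp8 (chr9:7558289-7558428): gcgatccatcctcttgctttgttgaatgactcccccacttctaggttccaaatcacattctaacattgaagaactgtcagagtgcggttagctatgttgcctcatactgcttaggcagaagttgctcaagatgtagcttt
The motif begins 35 bases before the start of Mmp13, 46 before that of Mmp3 and 63 before that of Mmp10. Of the 36 tested genes, 21 had a RefSeq window and only Adam19 held the motif, in 1 of its 3 windows, 131 bases before the start (chr11:46055844-46055983, plus strand).
Adam19: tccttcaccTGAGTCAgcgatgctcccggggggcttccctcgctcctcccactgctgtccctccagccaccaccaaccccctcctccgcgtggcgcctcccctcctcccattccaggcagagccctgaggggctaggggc
Adam19, a sheddase of neuregulins, stood at 17.4 and 15.5 CPM in Jun-cKO-labelled and 15.6 and 15.1 CPM in Jun-Ctrl libraries, groups that overlap, with a log2 fold change of 0.11 and an SE of 0.18 (adjusted p = 0.651). None of the 13 called genes with a window held the motif there, which says only that these letters are absent from that stretch. The other called genes, Mmp9 among them, had no window and were not searched.

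Setting the Jun-cKO-labelled against the Jun-Ctrl libraries asks how protease transcripts differ when 2 and not 1 Jun alleles are floxed. Of the 36 tested genes, 5 were higher and 14 lower at an adjusted p under 0.05 in the quasi-likelihood test of edgeR, 13.9% and 38.9% of them. The lower count was 9 on leaving out Jun-Ctrl replicate 1. Of all 12656 genes tested, 19.0% were called higher and 22.5% lower. The genes that were higher were Adamts5, Adamts9, Adam9, Adam10 and Adam1a, and none of them reached a 2-fold change, as 2.45% of all tested genes did in that direction. The 10 lower genes with a change of at least 2-fold, a size that 10.7% of all tested genes reached, included Adamts10, Adam15, Mmp9 and Mmp8. Of the tested genes, 6 passed the filter through the Jun-Ctrl libraries alone (Adam4, Adam11, Adamts7, Adamts14, Mmp9 and Mmp25), none through the Jun-cKO-labelled libraries alone, and 4 of the 6 are among the lower calls. Among the 24 genes with a mean of at least 5 CPM, 5 were higher and 8 lower, against 22.0% higher and 19.8% lower of all genes at that level. The median log2 fold change was -0.22 over the 36 and 0.01 over all tested genes, and -0.04 over the 24 against 0.05 at that level.

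**Figure D2:**
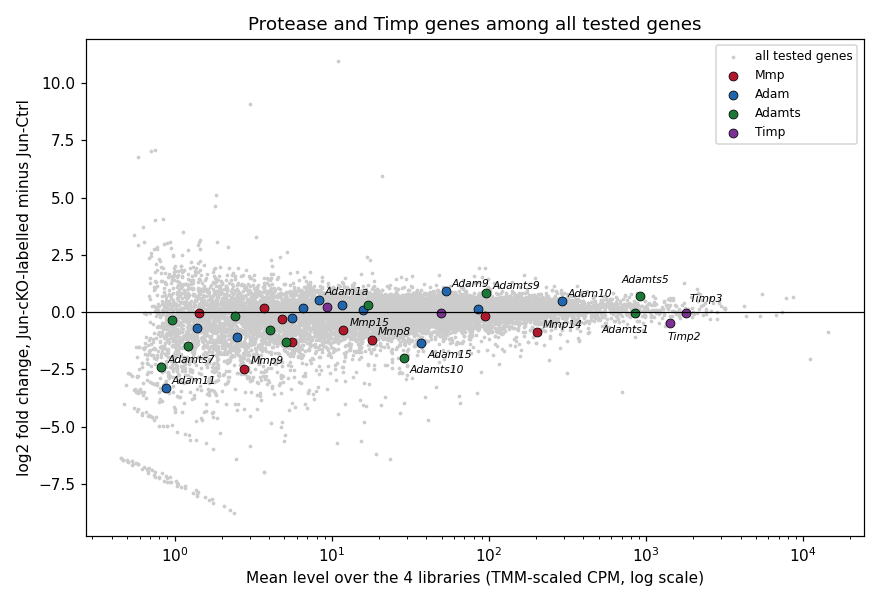
Mean level over the 4 libraries (TMM-scaled CPM, log axis) against the log2 fold change of Jun-cKO-labelled over Jun-Ctrl for all 12656 tested genes in grey and the 36 protease and Timp genes in colour by family. The strongest falls lie among the weakly expressed genes Adam11, Mmp9 and Adamts7, which passed the filter through the Jun-Ctrl libraries alone. Adamts5, Adamts9, Adam9 and Adam10 lie above 0 at means over 50 CPM.

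Transcripts of other lung cells were present and moved in the same comparison, and in bulk RNA fewer cells of a type and less RNA per cell cannot be told apart. Of 12 epithelial markers 11 fell and none rose, with sums of 191 and 190.0 CPM in Jun-cKO-labelled and 1649 and 1751 CPM in Jun-Ctrl libraries. For the 12 mesenchymal markers, 7 of 11 tested were lower and none higher, with sums of 109 and 117 CPM in Jun-cKO-labelled and 336 and 338 CPM in Jun-Ctrl libraries. Pdgfra (log2 fold change -0.18), Pdgfrb (0.087), Dcn (-0.57) and Tbx4 (-0.0064) were the mesenchymal markers without a call. Of 10 immune markers, 7 of 8 tested were lower and none higher. Their sums were 204 and 182 CPM in Jun-cKO-labelled and 462 and 454 CPM in Jun-Ctrl libraries. Adgre1 (log2 fold change 0.38) was the tested immune marker without a call. Cd3e was at 0 in every library and Cd79a at 0 in Jun-cKO-labelled libraries. Of 9 lymphatic markers, 4 of 8 tested were higher and 1, Flt4, lower (log2 fold change -0.60), with Ccl21a at 0 throughout. Prox1 (-0.31), Pdpn (0.15) and Thy1 (-0.17) were not called. Sums of the lymphatic markers, of which Lyve1 was the largest part, were 18993 and 19399 CPM in Jun-cKO-labelled and 14694 and 13746 CPM in Jun-Ctrl libraries. Of 5 mesothelial markers, 2 of 3 tested were lower and none higher, with sums of 4.06 and 3.54 CPM in Jun-cKO-labelled and 50.8 and 61.8 CPM in Jun-Ctrl libraries. Platelet markers also had 2 of 3 tested lower and none higher, with sums of 5.90 and 4.28 CPM in Jun-cKO-labelled and 7.10 and 12.5 CPM in Jun-Ctrl libraries and Ppbp at 0. Among 8 tested blood endothelial markers 3 were higher (Ednrb, Gpihbp1 and Vwf) and 3 lower (Plvap, Cd34 and Car4). The 10 listed summed to 1002 and 989 CPM in Jun-cKO-labelled and 858 and 888 CPM in Jun-Ctrl libraries. Ednrb alone had 545 and 565 CPM in Jun-cKO-labelled and 296 and 286 CPM in Jun-Ctrl libraries. Plvap ran the other way, with 183 and 134 CPM in Jun-cKO-labelled and 326 and 336 CPM in Jun-Ctrl libraries. Gja5 and Aplnr were at 0 in Jun-cKO-labelled libraries. Among 6 tested markers of all endothelium 2 were higher and 1 lower, with sums of 3033 and 3143 CPM in Jun-cKO-labelled and 2572 and 2889 CPM in Jun-Ctrl libraries. Mmp8, Mmp9 and Adam8 are known from myeloid cells, and Mmp11, Adamts2 and Adamts14 from fibroblasts, and the part of the marker shifts in their values was not tested.

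Base composition moved with the calls as well. The longest transcript had a median GC content of 46.6% in the 5 higher genes (42.1% to 49.7%), 55.9% in the 14 lower genes (43.4% to 60.1%) and 49.8% in the 17 without a call, against 50.1% over all tested genes. Its part in the result was not tested beyond the GC correction, with which 4 of the 36 genes were higher and 11 lower. The share of all tested genes called with that correction is not given here.

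Among the Mmp genes, 5 of 9 tested fell and none rose, 55.6% and 0% against the 22.5% and 19.0% of all tested genes. These shares include Mmp9, a lower call, and Mmp25, which passed the filter through the Jun-Ctrl libraries alone. Mmp14, the membrane-type enzyme that cuts collagen at the cell surface and activates Mmp2, was the most abundant. It had 162 and 121 CPM in Jun-cKO-labelled libraries and 258 and 269.7 CPM in Jun-Ctrl libraries, and the groups do not overlap. It fell 1.86-fold (log2 fold change -0.89 with an SE of 0.12, adjusted p = 6.87e-08). Its relative Mmp15 had 9.11 and 7.68 CPM in Jun-cKO-labelled and 13.3 and 17.1 CPM in Jun-Ctrl libraries, with no overlap, and fell 1.74-fold (adjusted p = 0.00115), a call that ended with the GC correction (adjusted p = 0.0568). The gelatinase Mmp2 was not called, at 95.2 and 82.7 CPM in Jun-cKO-labelled and 97.4 and 105 CPM in Jun-Ctrl libraries (log2 fold change -0.18 with an SE of 0.12, adjusted p = 0.235). The interval of its ratio ran from 0.749 to 1.04.

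The other gelatinase, Mmp9, is stored in neutrophil granules and made by macrophages and osteoclasts. It had 0.983 and 0.591 CPM in Jun-cKO-labelled libraries and 4.67 and 4.90 CPM in Jun-Ctrl libraries, and fell 5.52-fold (adjusted p = 1.14e-06). Mmp8 had 10.5 and 11.4 CPM in Jun-cKO-labelled and 26.2 and 23.7 CPM in Jun-Ctrl libraries, and fell 2.32-fold (adjusted p = 2.46e-07). The stromelysin Mmp11, an enzyme of fibroblasts, had 3.276 and 3.25 CPM in Jun-cKO-labelled and 8.19 and 7.65 CPM in Jun-Ctrl libraries, and fell 2.44-fold (adjusted p = 9.14e-05). In all 3 the groups stand apart, in the same values that gave the calls. The remaining tested genes, Mmp17, Mmp19 and Mmp25, had means under 5 CPM and log2 fold changes between -0.32 and 0.19, without a call. In the same libraries 7 of 8 tested immune and 7 of 11 tested mesenchymal markers were lower, and their part in these values was not tested.

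**Figure D3:**
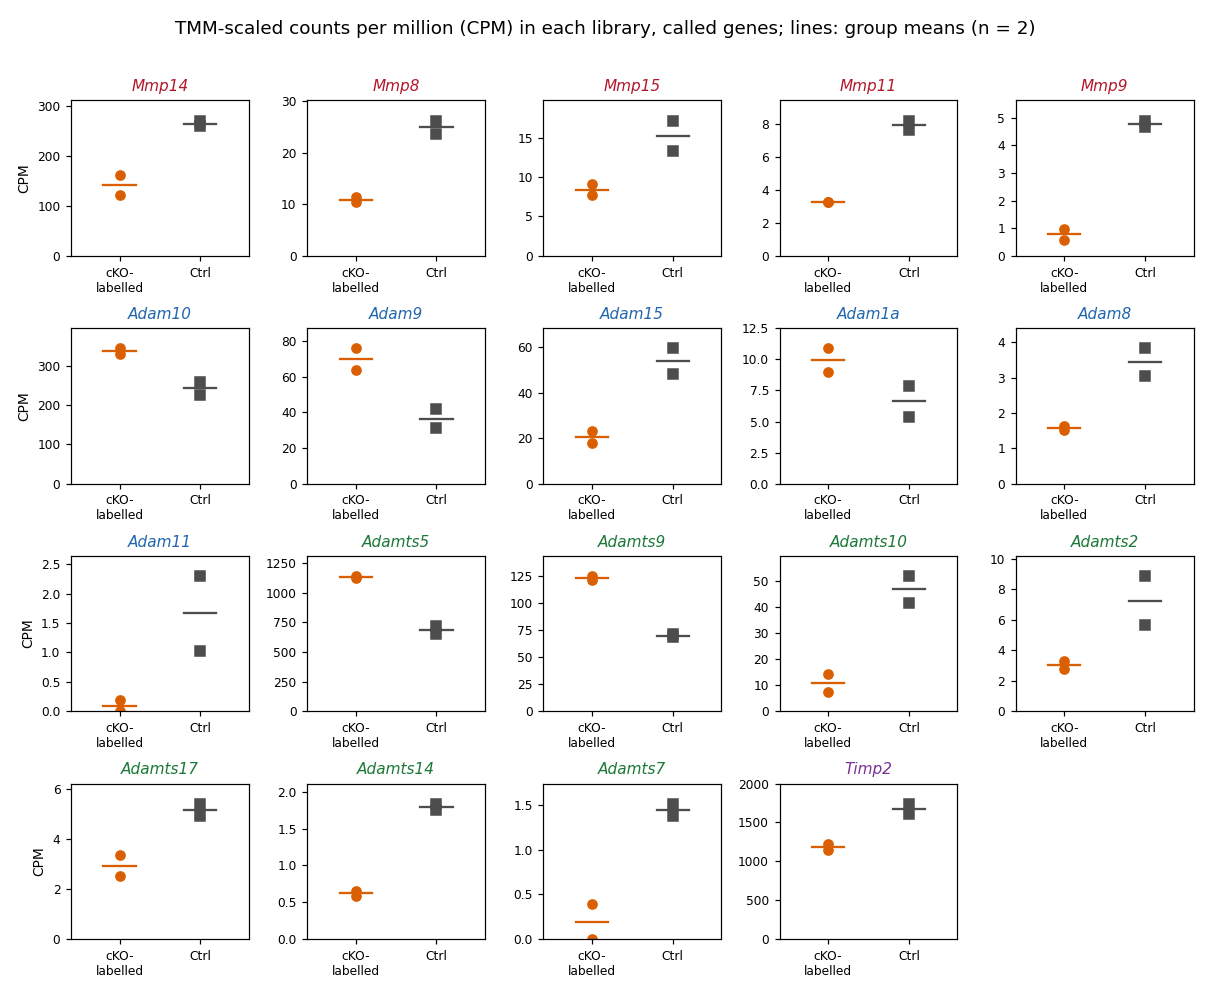
TMM-scaled CPM of the 19 called genes in each library, with Jun-cKO-labelled (circles) left of Jun-Ctrl (squares) and lines at the group means of 2 libraries; axes start at 0 and title colours mark the family. In every panel the 2 circles lie on one side of both squares, above them in Adam9, Adam10, Adam1a, Adamts5 and Adamts9 and below them in the other 14. The genes were called from these same values, so the separation adds no support to the calls.

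Of the 12 tested Adam genes, 3 were higher and 3 lower, 25.0% and 25.0%, near the 19.0% and 22.5% of all tested genes. These shares include Adam11, a lower call, and Adam4, which passed the filter through the Jun-Ctrl libraries alone. Adam10, the main sheddase of Notch receptors, had 331 and 345 CPM in Jun-cKO-labelled and 259.7 and 227 CPM in Jun-Ctrl libraries. It rose 1.39-fold (log2 fold change 0.47 with an SE of 0.12, adjusted p = 0.00104). The call ended on leaving out Jun-Ctrl replicate 2 (adjusted p = 0.0870) and with the GC correction (0.0599). Adam17, which releases tumour necrosis factor and ligands of the epidermal growth factor receptor, was not called, at 90.2 and 87.7 CPM in Jun-cKO-labelled and 85.8 and 77.1 CPM in Jun-Ctrl libraries. Its log2 fold change of 0.12 with an SE of 0.12 (adjusted p = 0.430) became -0.052 after GC correction.

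Adam9, a sheddase with a broad set of substrates, had 63.6 and 75.9 CPM in Jun-cKO-labelled and 41.7 and 31.2 CPM in Jun-Ctrl libraries. Both groups spread, without an overlap, and Adam9 rose 1.87-fold (log2 fold change 0.90 with an SE of 0.14, adjusted p = 7.73e-07). Adam1a, a fertilin subunit of mouse male germ cells with a near copy in Adam1b, had 10.9 and 9.01 CPM in Jun-cKO-labelled and 7.88 and 5.35 CPM in Jun-Ctrl libraries and an adjusted p of 0.0450. Its call ended on leaving out Jun-cKO-labelled replicate 1 (adjusted p = 0.299), on leaving out Jun-Ctrl replicate 2 (0.355), in DESeq2 (0.200), with library totals (0.0779), with the filter of 50 counts (0.0675) and with the GC correction (0.123). In GENCODE M21, 63.7% of its exon bases are also exons of Gm42878 and 24.0% of Mapkapk5 on the same strand, so its reads are uncertain.

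In the other direction, Adam15, which carries an integrin-binding disintegrin domain and is expressed in endothelium, had 23.1 and 18.0 CPM in Jun-cKO-labelled and 48.0 and 59.4 CPM in Jun-Ctrl libraries. It fell 2.54-fold (log2 fold change -1.34 with an SE of 0.15, adjusted p = 5.06e-10). An antisense transcript, 4731419I09Rik, shares 20.6% of its exon bases, and the library kit does not mark strand. Adam8, a protease of myeloid cells, had 1.51 and 1.62 CPM in Jun-cKO-labelled and 3.03 and 3.82 CPM in Jun-Ctrl libraries (2.14-fold lower, adjusted p = 0.0145). The Adam8 call ended on leaving out Jun-cKO-labelled replicate 1 (adjusted p = 0.115), on leaving out Jun-Ctrl replicate 1 or 2 (0.0692 and 0.109) and in DESeq2 (0.120). Adam11, which lacks a catalytic site and acts at neuronal membranes, had 3 and 0 counts in Jun-cKO-labelled and 17 and 15 counts in Jun-Ctrl libraries (log2 fold change -3.33 with an SE of 0.75, adjusted p = 0.000370). The others were not called. Adam12, a sheddase of muscle and fat progenitors, had 12.1 and 13.4 CPM in Jun-cKO-labelled and 9.46 and 11.6 CPM in Jun-Ctrl libraries (log2 fold change 0.29). Adam22, which has no active protease site, had 7.21 and 6.79 CPM in Jun-cKO-labelled and 6.25 and 6.12 CPM in Jun-Ctrl libraries (log2 fold change 0.18). Adam33 had 5.24 and 5.17 CPM in Jun-cKO-labelled and 6.55 and 5.51 CPM in Jun-Ctrl libraries (log2 fold change -0.24, or 0.088 after GC correction). Adam4 lay under 5 CPM (log2 fold change -0.71).

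Among the Adamts genes, 2 of 11 tested rose and 5 fell, 18.2% and 45.5% against the 19.0% and 22.5% of all tested genes. The lower calls include Adamts7 and Adamts14, which passed the filter through the Jun-Ctrl libraries alone. Of the 5 tested aggrecanases and versicanases, 2 rose and none fell. Adamts5, which cleaves versican and aggrecan, had 1127 and 1139.9 CPM in Jun-cKO-labelled and 718 and 655 CPM in Jun-Ctrl libraries, so the Jun-cKO-labelled libraries were nearly alike and stood above both others. It rose 1.65-fold (log2 fold change 0.72 with an SE of 0.12, adjusted p = 6.4e-06). Adamts9, a versicanase with a GON domain, had 121 and 125 CPM in Jun-cKO-labelled and 70.9 and 68.4 CPM in Jun-Ctrl libraries, and rose 1.76-fold (log2 fold change 0.82 with an SE of 0.12, adjusted p = 2.08e-07). Both calls held in every alternative run on all 4 libraries, GC correction included, except the 2-fold minimum, which neither gene reached. Over all refits the log2 fold change ran from 0.52 to 0.78 for Adamts5 and from 0.74 to 0.84 for Adamts9.

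Adamts1, a versicanase whose gene lies 53.1 kb from Adamts5 on chromosome 16, stood above Adamts5 per kilobase and was not called. It had 796 and 899 CPM in Jun-cKO-labelled and 848 and 886 CPM in Jun-Ctrl libraries, so the groups overlap. The log2 fold change was -0.033 with an SE of 0.12 (adjusted p = 0.856), the interval of the ratio ran from 0.823 to 1.16, and that of Adamts5 from 1.39 to 1.96. The difference between the neighbours was not tested. Adamts4, the classical aggrecanase, had 20.9 and 16.7 CPM in Jun-cKO-labelled and 15.4 and 14.99 CPM in Jun-Ctrl libraries (log2 fold change 0.33 with an SE of 0.17, adjusted p = 0.131). It passed on leaving out Jun-cKO-labelled replicate 2 (adjusted p = 0.0388) and with the GC correction (0.0206). Adamts15 was not called, at means under 5 CPM (log2 fold change -0.19).

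Adamts8, of the same role, was not tested because its counts were low. It had 0 counts in both Jun-cKO-labelled libraries and 21 and 5 in Jun-Ctrl libraries. With 3 counts put in place of the 0 of the group, it was 8.29-fold lower. That figure takes the Jun-Ctrl counts as exact and leaves out the spread between libraries, so it is not a lower bound. Adamts8 is named after its values were seen. So is Adam23, with 0 counts in both Jun-cKO-labelled and 9 and 2 in Jun-Ctrl libraries. The same holds for Mmp23, with 3 and 0 counts in Jun-cKO-labelled and 16 and 4 in Jun-Ctrl libraries.

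The procollagen N-propeptidases, which trim fibrillar procollagens, were weakly expressed. The 2 tested, Adamts2 and Adamts14, were lower, as were 22.5% of all tested genes. Adamts14 passed the filter through the Jun-Ctrl libraries alone, and Adamts3, with more counts in Jun-cKO-labelled libraries, was below the filter. Adamts2 had 3.276 and 2.81 CPM in Jun-cKO-labelled and 8.85 and 5.66 CPM in Jun-Ctrl libraries, and fell 2.44-fold (adjusted p = 0.000169), a call that ended on leaving out Jun-Ctrl replicate 1 (adjusted p = 0.110). Adamts14 had 0.655 and 0.591 CPM in Jun-cKO-labelled and 1.76 and 1.84 CPM in Jun-Ctrl libraries (adjusted p = 0.0139). That call ended on leaving out Jun-cKO-labelled replicate 1 (adjusted p = 0.115), on leaving out Jun-Ctrl replicate 1 or 2 (0.147 or 0.0869), in DESeq2 (0.149) and with the GC correction (0.0628).

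Adamts3, the third of this role and the protease that activates Vegfc, was near the limit of detection. It had 15 and 6 counts in Jun-cKO-labelled libraries and 1 and 2 counts in Jun-Ctrl libraries, below the filter. The ratio of the summed counts, scaled to library size, was 7.32 with a 95% exact binomial interval from 2.18 to 38.3, which covers counting error only. Its cofactor Ccbe1 had 0 counts in both Jun-cKO-labelled libraries and 5 and 3 in Jun-Ctrl libraries, and Vegfc itself had 36 and 28 counts in Jun-cKO-labelled and 44 and 24 in Jun-Ctrl libraries, with a log2 fold change of -0.0027 and an SE of 0.34 (adjusted p = 0.995).

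Of the other Adamts genes, 3 of 4 tested were lower and none higher, against 22.5% lower and 19.0% higher of all tested genes. Adamts7, 1 of the 3, passed the filter through the Jun-Ctrl libraries alone. Adamts10, an enzyme of fibrillin microfibrils, had 14.4 and 7.38 CPM in Jun-cKO-labelled and 41.5 and 51.7 CPM in Jun-Ctrl libraries. Its Jun-cKO-labelled libraries were uneven, but both lay far below the others, and it fell 3.99-fold (log2 fold change -1.996 with an SE of 0.18, adjusted p = 1.26e-12). Adamts7, a protease of cartilage oligomeric matrix protein, had 6 and 0 counts in Jun-cKO-labelled and 25 and 9 counts in Jun-Ctrl libraries (log2 fold change -2.41 with an SE of 0.64, adjusted p = 0.00206), with an adjusted p of 0.0603 in DESeq2; on leaving out Jun-Ctrl replicate 1 it was below the filter. Adamts17 had 3.34 and 2.51 CPM in Jun-cKO-labelled and 5.40 and 4.90 CPM in Jun-Ctrl libraries (1.71-fold lower, adjusted p = 0.0292). Its adjusted p was 0.103 on leaving out Jun-cKO-labelled replicate 2, 0.222 or 0.0638 on leaving out Jun-Ctrl replicate 1 or 2, 0.170 in DESeq2 and 0.0533 with the GC correction. Adamts6 was not called (log2 fold change -0.33).

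**Figure D4:**
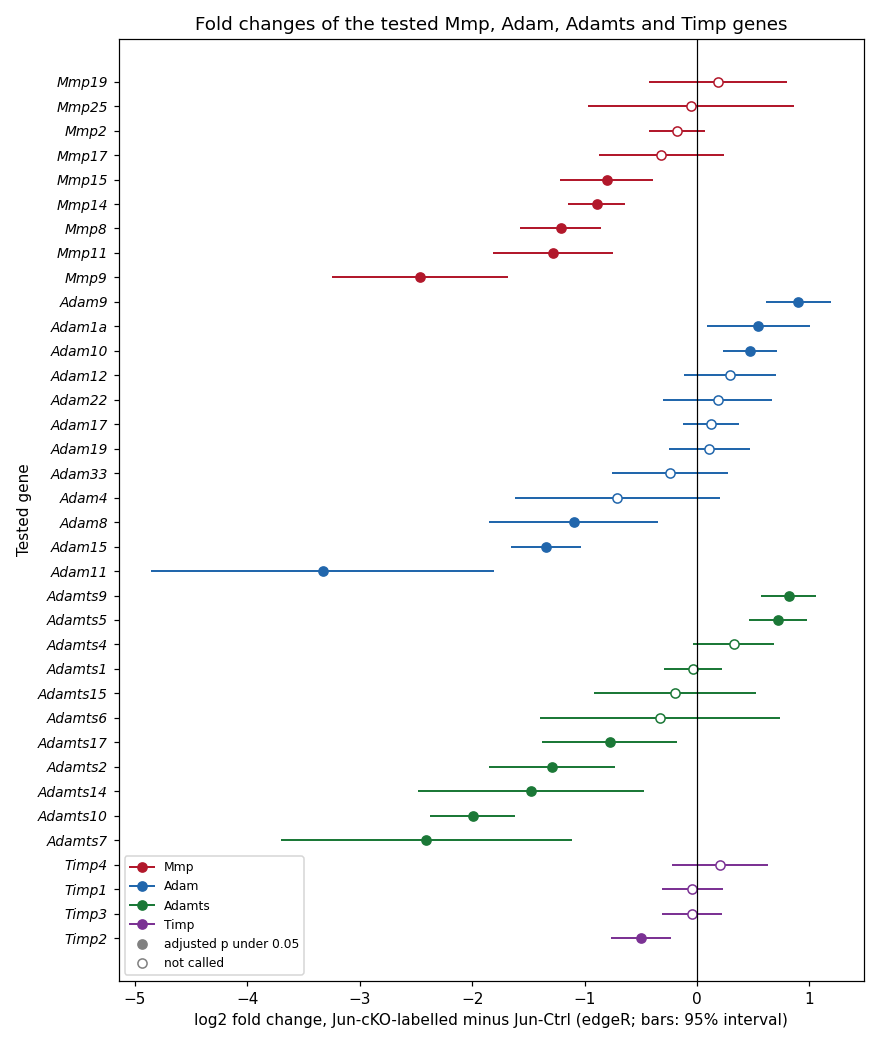
Log2 fold change of Jun-cKO-labelled over Jun-Ctrl with its 95% interval for the 36 tested genes, by family from Mmp at the top to Timp at the bottom; filled points passed an adjusted p of 0.05. Of the Mmp genes 5 are filled and all of these lie left of 0, while the Adam and Adamts genes have filled points on both sides and Timp2 is the filled Timp gene.

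Of the 4 inhibitors 1 changed. Timp2, which blocks Mmp2 and Mmp14 and also takes part in activating Mmp2 at the cell surface, had 1221 and 1145 CPM in Jun-cKO-labelled and 1603 and 1739.9 CPM in Jun-Ctrl libraries. It fell 1.41-fold (log2 fold change -0.50 with an SE of 0.13, adjusted p = 0.00152). The call held in every alternative run on all 4 libraries except the 2-fold minimum. Over all refits the log2 fold change of Timp2 ran from -0.57 to -0.41. Timp3, which binds to matrix, had 1719.7 and 1822 CPM in Jun-cKO-labelled and 1819.9 and 1835 CPM in Jun-Ctrl libraries, groups that overlap, with a ratio interval from 0.809 to 1.16 (adjusted p = 0.806). Its exons share 21.3% of their bases with Syn3 on the other strand. Timp1, often listed as a target of AP-1, had 47.4 and 50.05 CPM in Jun-cKO-labelled and 50.3 and 49.9 CPM in Jun-Ctrl libraries, with a ratio interval from 0.809 to 1.16 (adjusted p = 0.821). Timp4 had 10.7 and 9.30 CPM in Jun-cKO-labelled and 9.10 and 8.41 CPM in Jun-Ctrl libraries, with an interval from 0.860 to 1.54 (adjusted p = 0.459).

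Activators, carriers and relatives of these proteases were read from a list of 30 genes, of which 23 were tested, 5 higher and 7 lower, 21.7% and 30.4% against the 19.0% and 22.5% over all genes. The higher count was 3 on leaving out Jun-cKO-labelled replicate 1 and 1 or 2 on leaving out Jun-Ctrl replicate 1 or 2. Among partners of Adam10, Tspan14 had 241 and 215 CPM in Jun-cKO-labelled and 182 and 167 CPM in Jun-Ctrl libraries and rose 1.31-fold (adjusted p = 0.00606). Tspan5 had 134 and 117 CPM in Jun-cKO-labelled and 177 and 193 CPM in Jun-Ctrl libraries and fell 1.47-fold (adjusted p = 0.000156). Both encode tetraspanins that carry Adam10 to the cell surface, and the other tested ones, Tspan15 and Tspan17, were not called (log2 fold change -0.35 and -0.39). The Tspan14 call ended on leaving out Jun-cKO-labelled replicate 1 (adjusted p = 0.0593) and on leaving out Jun-Ctrl replicate 1 or 2 (0.0503 or 0.145).

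Rhbdf1, an inactive rhomboid that brings Adam17 to the surface, had 34.5 and 34.8 CPM in Jun-cKO-labelled and 58.5 and 67.0 CPM in Jun-Ctrl libraries and fell 1.80-fold (adjusted p = 1.41e-06). Of the proprotein convertases, which remove the prodomains of many of these proteases, Pcsk5 fell 2.20-fold (adjusted p = 8.51e-05) and Furin 1.29-fold (adjusted p = 0.0476), while Pcsk6, the most abundant, was not called (log2 fold change 0.22, adjusted p = 0.123). The adjusted p of Furin was 0.193 on leaving out Jun-cKO-labelled replicate 2, 0.118 or 0.157 on leaving out Jun-Ctrl replicate 1 or 2, 0.133 in DESeq2, 0.0588 without a filter and 0.744 with the GC correction. Reck, a membrane inhibitor of Mmp enzymes, rose 1.26-fold (adjusted p = 0.0397), as did Bsg, which induces Mmp production in neighbouring cells, at 1.26-fold (adjusted p = 0.0216). Without Jun-cKO-labelled replicate 2 the adjusted p of Reck was 0.162, and on leaving out Jun-Ctrl replicate 1 or 2 it was 0.198 or 0.166; it was 0.156 with the GC correction, 0.117 in DESeq2, 0.0722 at a minimum of 50 counts and 0.0940 by library totals. The Bsg call ended on leaving out Jun-cKO-labelled replicate 1 (log2 fold change 0.15) and on leaving out Jun-Ctrl replicate 1 or 2 (0.27 or 0.35). Without Jun-cKO-labelled replicate 2 its log2 fold change was 0.49. The adjusted p of Bsg was 0.0610 with library totals and 0.0588 in DESeq2. With the GC correction its log2 fold change moved from 0.33 to 0.61 (adjusted p = 3.14e-05).

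The procollagen C-proteinases differed in direction. Bmp1 had 84.3 and 78.4 CPM in Jun-cKO-labelled and 139 and 179.8 CPM in Jun-Ctrl libraries and fell 1.95-fold (adjusted p = 1.47e-08). Its relative Tll1 had 17.0 and 17.4 CPM in Jun-cKO-labelled and 8.55 and 11.2 CPM in Jun-Ctrl libraries and rose 1.79-fold (adjusted p = 0.000390), with an adjusted p of 0.0769 on leaving out Jun-Ctrl replicate 1. Pcolce, the enhancer of these enzymes, fell 2.12-fold (adjusted p = 0.0121), with 0.0698 on leaving out Jun-cKO-labelled replicate 2, 0.144 on leaving out Jun-Ctrl replicate 1, 0.113 in DESeq2 and 0.0748 with the GC correction. Of the Adamts-like proteins, which have no protease domain, Adamtsl1 rose 1.63-fold (adjusted p = 5.3e-06) and Thsd4 fell 1.40-fold (adjusted p = 0.00162).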

How the data were processed

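RNA of sorted lung lymphatic endothelial cells was isolated, linearly amplified and sequenced, per the labels' protocols, in reads of 79 bases. The authors deposited 1 table of unnormalised read counts by gene and library, with gene lengths in bases. STAR 2.7.2a, featureCounts 1.6.4, edgeR 3.28.1 and mm10 are named without roles per the submitters' processing notes. The sources used here give neither the annotation nor the strand setting.

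Counts were tested with edgeR 4.0.16 (R 4.3.3; glmQLFit and glmQLFTest) after TMM scaling and filterByExpr at its default of 10 counts, which left 12656 genes. Adjusted p-values are Benjamini-Hochberg over all of these, called under 0.05. Standard errors are the fold change over the root of F, and intervals are 95%. The groups' libraries differed beyond sampling noise (median chi-square per gene 1.59 in Jun-cKO-labelled and 1.27 in Jun-Ctrl, against 0.455). Alternatives were DESeq2 1.42.0, other scalings and filters, each library left out, the replicate mark as a block, a 2-fold minimum and a GC correction (loess, span 0.5, transcript GC content from GENCODE M21, known for 96.3% of tested genes).

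The genes, lists and alternatives were chosen with earlier results of these data known. All called genes are named, with values per library, as are genes not called with a mean of at least 5 CPM and 10 fixed by symbol; of the listed partners, all called ones and a few others are named. A planned search for a zinc-binding motif in the proteins was not run.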

Additional observations from a re-analysis of the deposited data

How the results depend on the processing

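Of the 19 called genes, 11 kept their call and direction in every alternative in which they were tested, out of 12 refits, and 8 lost it in at least 1. The count of higher genes was 5, and the count of lower genes was 14. Leaving out each library in turn gave 4 to 7 higher and 9 to 14 lower genes, with 9 lower without Jun-Ctrl replicate 1, where 34 of the genes were tested. The filter of 50 counts in 2 libraries, which tested 27 of them, gave 9 lower. A minimum of 2-fold left 0 higher and 10 lower. DESeq2 called 4 higher and 10 lower. Without a filter 55 genes were tested and 6 were higher and 17 lower, with Adamts3 (adjusted p = 0.0140) added as higher and Adamts8 (7.98e-05), Adam23 (0.0230) and Mmp23 (0.0267) as lower. With library totals 4 were higher and 14 lower, and the median log2 fold change of all tested genes moved from 0.01 to -0.05. For the partner list, library totals, DESeq2 and the 2-fold minimum gave 3, 3 and 0 higher genes against 5, the 2-fold minimum gave 2 lower genes against 7, and leaving out a library gave 1 to 4 higher and 5 to 7 lower. These were 1 and 2 without Jun-Ctrl replicates 1 and 2, and 3 without Jun-cKO-labelled replicate 1. The cause of these shifts was not tested. Shares of all tested genes called in the alternative runs are not given here. Whether the shifts are particular to these genes therefore cannot be told.

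The log2 fold change of Jun was 0.32 with the GC correction (adjusted p = 0.0211), and 0.32 with the block added to it (adjusted p = 0.00291). Among genes without a call, the sign turned for Adam17 (-0.052 with the GC correction, and -0.051 with the block added), for Adam33 (0.088 and 0.084) and for Adamts1 without Jun-cKO-labelled replicate 1 (0.053, in a range from -0.11 to 0.053 over the libraries left out). With the replicate mark of the titles as a block, 5 genes were higher and 14 lower, the partner list had 5 and 7, and Jun stood at 0.14. Libraries with the same mark deviated together only weakly (r = 0.0732 across 12656 genes, which are not independent replicates), so the mark was not taken as a pairing. Depth limits the weakly expressed genes, since a gene under 0.89 CPM in a group could pass only through the other.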
